A study of Mus musculus with 24 samples.

Results

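The kidney genes described here encode the enzymes that make and break down eicosanoids and the receptors that read them. They were chosen by gene symbol alone, as every gene with a probe set of its own whose symbol begins with *Pla2g*, *Alox*, *Ephx*, *Cysltr* or *Ltb4r*, or with *Ptg* followed by a letter, together with *Ltc4s*, *Lta4h*, *Hpgd*, *Hpgds*, *Tbxas1* and *Tbxa2r*. The rule found 55 genes of the 18782 genes that had a probe set carrying their symbol alone. *Ptges3* was the exception with several such probe sets, and it was represented by the one with the highest mean. A further 5 probe sets that matched the rule carried several symbols and were not used, among them one that pairs *Pla2g2c* with *Ubxn10*.

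RNA was taken from the kidneys of Schlager mice at 12 weeks of age, from 6 males and 6 females of the hypertensive strain BPH/2J and from 6 males and 6 females of its normotensive control strain BPN/3J. Both strains come from selective breeding for blood pressure, so blood pressure and the other differences between these inbred backgrounds cannot be told apart. By the study's methods the pressure of these same animals was not recorded. Each of the 24 samples was hybridized to 1 Affymetrix Mouse Gene 1.0 ST array. Members other than *Ptges3* rest on 1 probe set of their own, and probe sequences were not compared between the strains.

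Eicosanoids are short-lived signals made from arachidonic acid. Phospholipases A2 cut the acid out of membrane lipid, after which cyclooxygenases and terminal synthases turn it into prostaglandins, prostacyclin and thromboxane, lipoxygenases turn it into leukotrienes and hydroxy acids, and cytochrome P450 enzymes turn it into epoxides that epoxide hydrolases open. In the kidney these products act on vessel tone, renin release and the handling of salt and water.

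Levels are given as log2 RMA expression, where a difference of 1 is a doubling, and differences below are log2 differences of group means with the standard error (SE). Members were called at a Benjamini-Hochberg adjusted p under 0.05 in limma, adjusted over all 28853 probe sets. Where arrays of 2 groups are said to be apart or not to overlap, the share of all probe sets that did so was not computed. Over the series the array medians lay between 6.89 and 6.97, arrays of one group correlated at r = 0.981 to 0.997, and no 2 arrays held the same values. The mean of 13 tubule and glomerulus genes lay between 11.22 and 11.38 in males and between 11.43 and 11.60 in females, apart by sex. Transcript of neighbouring tissue varied: the mean of 23 hepatocyte genes reached 11.21 and 11.51 on arrays 2 and 5 of the BPN/3J females and stayed between 6.37 and 9.32 on the others, and 9 adrenal cortex genes ranged from 5.73 to 10.07. Whole kidney was measured, so fewer cells of a type and less RNA per cell cannot be told apart.

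Promoter sequence is shown for the members with the largest strain differences in both sexes, *Pla2g5* and *Cysltr2*, and for *Hpgd*, which had the largest sex difference. The windows are the 250 bases before a RefSeq start site (GRCm38.p6), read 5′ to 3′ on the strand of the gene, and lie at chr4:138819258-138819507 (minus strand), chr14:73049115-73049364 (minus strand) and chr8:56294302-56294551 (plus strand). Capitals mark the half-site letters GGTCA, known for estrogen receptors, on either strand, so that TGACC is the same motif read on the other strand.
*Pla2g5*: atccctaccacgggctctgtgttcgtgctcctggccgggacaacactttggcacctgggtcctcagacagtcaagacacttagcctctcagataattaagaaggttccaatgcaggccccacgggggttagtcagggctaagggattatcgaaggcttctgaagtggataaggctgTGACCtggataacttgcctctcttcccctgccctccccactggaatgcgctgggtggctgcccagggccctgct
*Cysltr2*: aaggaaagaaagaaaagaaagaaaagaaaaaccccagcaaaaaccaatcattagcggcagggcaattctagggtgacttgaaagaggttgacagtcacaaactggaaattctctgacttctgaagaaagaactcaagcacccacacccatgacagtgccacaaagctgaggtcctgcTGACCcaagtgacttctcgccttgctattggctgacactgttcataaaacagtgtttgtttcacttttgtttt
*Hpgd*: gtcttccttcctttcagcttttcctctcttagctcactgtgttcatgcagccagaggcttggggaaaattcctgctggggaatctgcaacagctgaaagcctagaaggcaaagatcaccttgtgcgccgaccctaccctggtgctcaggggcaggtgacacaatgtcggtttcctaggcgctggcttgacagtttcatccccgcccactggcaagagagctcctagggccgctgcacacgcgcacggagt
The motif occurred once in the windows of *Pla2g5* and *Cysltr2* and was not found in that of *Hpgd*, nor at a further RefSeq start of *Pla2g5* (chr4:138863470-138863719). It occurred in 18 of the 52 windows listed for 47 of the members (34.6%) and in 35.2% of all 32851 windows. The letters AGAACA, known as a half-site of the androgen and glucocorticoid receptors, occurred on either strand in 8 member windows (15.4%) and in 16.1% of all windows, and in none of the windows printed. Both shares in members lay close to those of all genes. *Ephx2* had no matched entry.

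In males, 10 of the 55 members differed between the strains: 8 were higher and 2 were lower in BPH/2J, and 45 were not called. The calls were led by *Pla2g5*, *Cysltr2* and *Pla2g2c*, and those lower in BPH/2J were *Ltc4s* and *Alox5ap*. In females 15 members were called, 8 higher and 7 lower. Among male calls, 14.5% of the members and 7.48% of all probe sets were on the higher side, and 3.64% and 7.7% on the lower side. In females 14.5% of the members and 8.01% of all probe sets were on the higher side, and 12.7% and 6.48% on the lower side. The median difference of the members was 0.03 in each sex, beside 0 over all probe sets in males and 0.02 in females.

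The comparisons in males and in females share no array. They had 9 members in common, 90% of the male and 60% of the female calls, with 7 higher and 2 lower in BPH/2J in both sexes and none in opposite directions. Over all probe sets, 4.19% were called higher and 3.9% lower in both sexes. The members in common were *Pla2g5*, *Pla2g2c*, *Ptgis*, *Ptgfrn*, *Ptgr1*, *Alox5* and *Cysltr2* on the higher side and *Alox5ap* and *Ltc4s* on the lower. At the Bonferroni threshold of the methods 3 members passed in males (*Pla2g5*, *Cysltr2* and *Pla2g2c*) and 2 in females (*Pla2g5* and *Cysltr2*), where 2.56% and 2.36% of all probe sets did so.

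**Figure D1:**
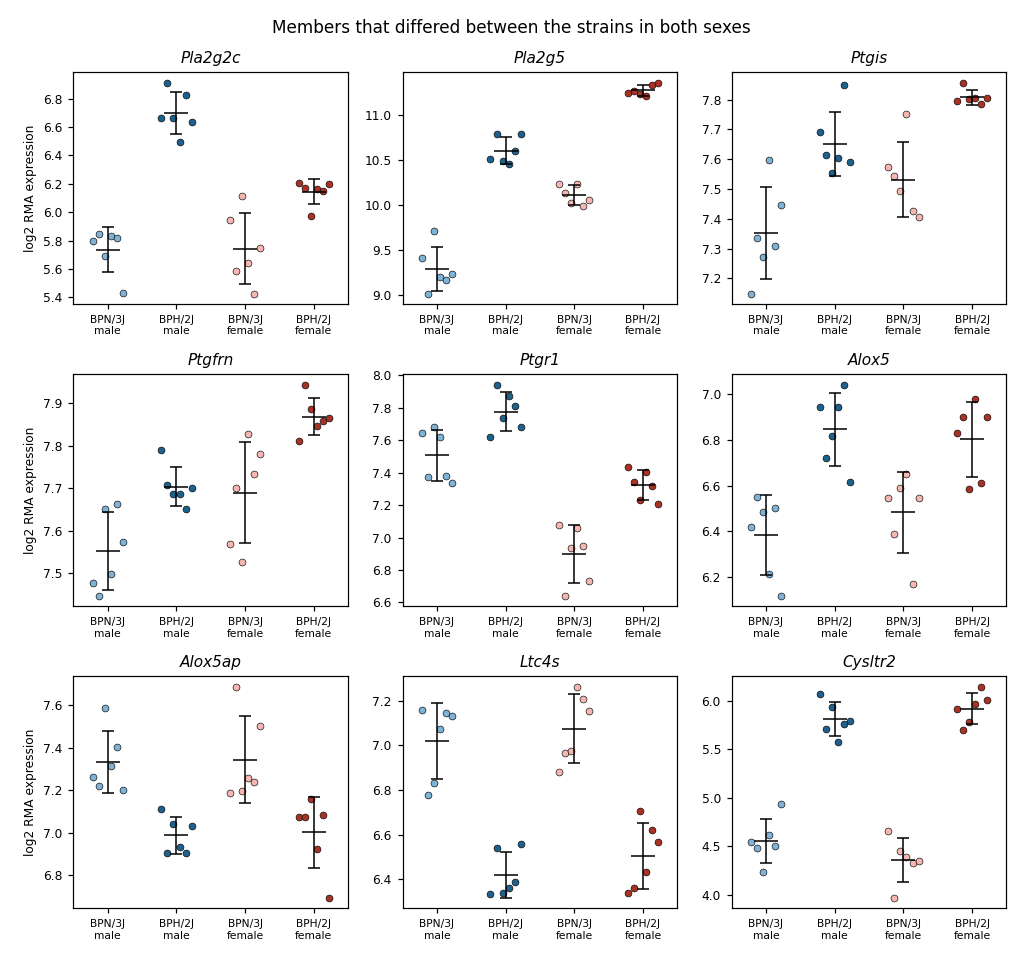
Log2 RMA expression of the 9 members called in the same direction in both sexes, by strain and sex. Each point is 1 array (1 mouse), and the bars are the group mean and its SD (n = 6). The arrays of the strains do not overlap within either sex for *Pla2g5*, *Cysltr2*, *Ltc4s* and *Alox5ap*.

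Among the secreted phospholipases A2, 3 of 11 were higher in BPH/2J males and 2 of 11 in BPH/2J females, and none was lower, where 7.48% and 8.01% of all probe sets were higher. *Pla2g5* (probe set 10517655), a secreted enzyme that also cuts phosphatidylcholine in the outer face of cells, measured 9.02 to 9.71 (median 9.22) in BPN/3J males and 10.45 to 10.79 (median 10.55) in BPH/2J males. In females it measured 9.99 to 10.23 (median 10.09) in BPN/3J and 11.20 to 11.35 (median 11.25) in BPH/2J. All 4 groups were separate, in the order BPN/3J male, BPN/3J female, BPH/2J male, BPH/2J female. The strain difference was 1.31 in males (SE 0.106, 2.48-fold, adjusted p = 1.19e-06) and 1.16 in females (SE 0.0515, 2.23-fold, adjusted p = 4.6e-09). The difference of these differences was −0.15 (95% interval −0.41 to 0.10) and was not called.

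*Pla2g2c* (probe set 10509571), another secreted enzyme of the same gene cluster, measured 5.43 to 5.84 (median 5.81) in BPN/3J males and 6.49 to 6.91 (median 6.66) in BPH/2J males. In females it measured 5.43 to 6.11 (median 5.69) in BPN/3J and 5.97 to 6.21 (median 6.17) in BPH/2J. The males of the strains were apart and the females overlapped. The strain difference of 0.96 in males (SE 0.0824, 1.95-fold, adjusted p = 2.16e-06) was larger than the 0.40 in females (SE 0.0996, 1.32-fold, adjusted p = 0.0157), with a strain-by-sex interaction of −0.56 (SE 0.134, adjusted p = 0.0269). Without arrays 2 and 5 of the BPN/3J females the difference in females was 0.28 and was no longer called (adjusted p = 0.0635), while the interaction was −0.68 (adjusted p = 0.00388). With single arrays left out, the interaction was not called without BPH/2J male array 2 (−0.52, adjusted p = 0.0507), BPH/2J male array 5 (−0.53, adjusted p = 0.0548) or BPN/3J female array 1 (−0.52, adjusted p = 0.051). With the mean of the adipocyte genes in the model neither the interaction (−0.49, adjusted p = 0.16) nor the difference in females (0.54, adjusted p = 0.0936) was called, and the replicate block gave the interaction an adjusted p of 0.0571.

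*Pla2g12b*, a catalytically inactive relative of the phospholipases that hepatocytes and gut use in lipoprotein secretion, measured 5.48 to 6.08 (median 5.90) in BPN/3J males and 6.32 to 7.08 (median 6.55) in BPH/2J males. In females it measured 5.25 to 8.35 (median 5.71) in BPN/3J and 6.40 to 6.86 (median 6.45) in BPH/2J. Arrays 2 and 5 of the BPN/3J females, the pair with the most hepatocyte transcript, read 7.57 and 8.35, and the other 4 arrays of that group read 5.25 to 5.74. It was 0.79 higher in BPH/2J males (SE 0.137, 1.73-fold, adjusted p = 0.00121), a call that one fit to all 24 arrays did not make (adjusted p = 0.15). In females the difference was 0.14 (SE 0.463, adjusted p = 0.894), and it was 0.93 without arrays 2 and 5 (SE 0.112, adjusted p = 0.000237).

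*Pla2g2c*, *Pla2g2f*, *Pla2g2d*, *Pla2g5*, *Pla2g2a* and *Pla2g2e* lie in that order on chromosome 4, as 6 members in a run of 7 genes. *Pla2g2a* is annotated as a transcribed pseudogene in this reference. Only *Pla2g2c* and *Pla2g5* were called by strain, both higher in both sexes, as were 4.19% of all probe sets. *Pla2g2f* and *Pla2g2d* lie between them. The means of *Pla2g2a*, *Pla2g2e* and *Pla2g2f* were low, at percentiles 22.0, 32.9 and 34.0 of all probe sets, with *Pla2g2c* at 38.0. The SD of *Pla2g2d* within groups was 0.37 to 0.49. A missing call in these genes therefore says little, and a part of position was not tested. *Pla2g2d*, a phospholipase of immune tissue, had differences of 0.34 in males and 0.21 in females, and *Pla2g2f* had −0.17 and −0.22. *Pla2g2a* had 0.19 and 0.11, and *Pla2g2e* had −0.10 and −0.02.

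**Figure D2:**
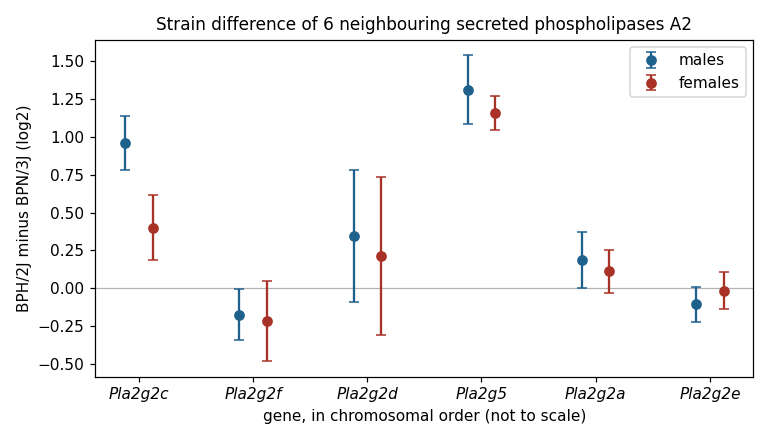
Log2 difference of BPH/2J minus BPN/3J in males and in females (6 arrays per strain and sex) for 6 phospholipase genes in their order on chromosome 4, with 95% intervals. *Pla2g2c* and *Pla2g5* stand at 0.96 and 1.31 in males and at 0.40 and 1.16 in females, and the other 4 genes were not called.

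Leukotrienes begin with *Alox5*, the lipoxygenase that oxidizes arachidonic acid, and its membrane partner *Alox5ap*, which presents the acid to it. *Alox5* measured 6.12 to 6.55 (median 6.45) in BPN/3J males, 6.62 to 7.04 (median 6.88) in BPH/2J males, 6.17 to 6.65 (median 6.55) in BPN/3J females and 6.59 to 6.98 (median 6.87) in BPH/2J females. The males were apart and the females overlapped, with differences of 0.46 (SE 0.089, 1.38-fold, adjusted p = 0.00259) and 0.32 (SE 0.0907, 1.25-fold, adjusted p = 0.0319). *Alox5ap* went the other way, from 7.20 to 7.59 (median 7.29) in BPN/3J to 6.90 to 7.11 (median 6.98) in BPH/2J males, and from 7.19 to 7.69 (median 7.25) to 6.70 to 7.16 (median 7.07) in females. It was 0.34 lower in BPH/2J in both sexes (log2 difference −0.34, SE 0.0666 in males and 0.0992 in females, adjusted p = 0.00281 and 0.0349), and in neither sex did the arrays overlap. Without arrays 2 and 5 of the BPN/3J females, which leaves 4 against 6 arrays, the differences in females were 0.22 for *Alox5* (adjusted p = 0.122) and −0.28 for *Alox5ap* (adjusted p = 0.0869), and neither was called. In all, the calls in females were lost under 12 of 26 alternative settings for *Alox5* and under 14 of 26 for *Alox5ap*.

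*Ltc4s* encodes the synthase that joins leukotriene A4 to glutathione to form leukotriene C4. It measured 6.78 to 7.16 (median 7.10) in BPN/3J males and 6.33 to 6.56 (median 6.37) in BPH/2J males, and 6.88 to 7.26 (median 7.07) and 6.34 to 6.71 (median 6.50) in the females. Every BPH/2J array read below every BPN/3J array of its sex. The differences were −0.60 in males (SE 0.0762, 1.52-fold lower, adjusted p = 9.09e-05) and −0.57 in females (SE 0.0818, 1.48-fold lower, adjusted p = 0.000319).

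*Cysltr2* (probe set 10421517), a receptor for the cysteinyl leukotrienes that follow from *Ltc4s*, had the largest strain difference of any member in females. Its level was 4.24 to 4.93 (median 4.52) in BPN/3J males, 5.58 to 6.07 (median 5.77) in BPH/2J males, 3.97 to 4.66 (median 4.37) in BPN/3J females and 5.70 to 6.14 (median 5.94) in BPH/2J females. No array of one strain reached the range of the other. The strain difference was 1.56 in females (SE 0.103, 2.95-fold, adjusted p = 2.62e-07), and in males it was 2.39-fold (SE 0.106 in log2, adjusted p = 1.87e-06), with an interaction of 0.30 (95% interval −0.02 to 0.62) that was not called. *Ltc4s* was thus lower and *Cysltr2* higher in BPH/2J of both sexes. *Cysltr1*, another cysteinyl leukotriene receptor, differed by −0.09 in males and −0.07 in females and was not called. The level of *Cysltr2* was low, with a mean at percentile 21.4 of all probe sets. Among the other pathway genes listed further below, *Mgst3* (mean 10.54) was higher in BPH/2J by 1.06 in males and 0.52 in females. *Oxgr1* was higher by 0.62 and 0.60, while *Mgst2* and *Gpr17* were not called by strain. The contrast therefore describes *Ltc4s* and *Cysltr2* alone.

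Of the remaining leukotriene and lipoxygenase genes, *Lta4h*, the hydrolase that makes leukotriene B4, was lower in BPH/2J females (−0.15, adjusted p = 0.0264), as was *Alox8* (−0.26, adjusted p = 0.0156). The call of *Lta4h* was lost under 11 of 26 alternative settings, among them without arrays 2 and 5 of the BPN/3J females (−0.15, adjusted p = 0.0648). The leukotriene B4 receptor *Ltb4r1* and the lipoxygenases *Alox12*, *Alox12b*, *Alox12e*, *Alox15* and *Aloxe3* were not called by strain in either sex. The mean of 12 macrophage and myeloid genes lay between 7.54 and 7.73 in BPN/3J males, 7.47 and 7.66 in BPH/2J males, 7.52 and 7.98 in BPN/3J females and 7.50 and 7.78 in BPH/2J females, so the strains overlapped in both sexes. For 8 mast cell genes, without *Hdc*, the ranges were 5.53 to 5.66, 5.59 to 5.81, 5.60 to 5.76 and 5.82 to 5.96 in the same order, apart in females and overlapping in males. The part of these cells in the leukotriene results was not tested.

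**Figure D3:**
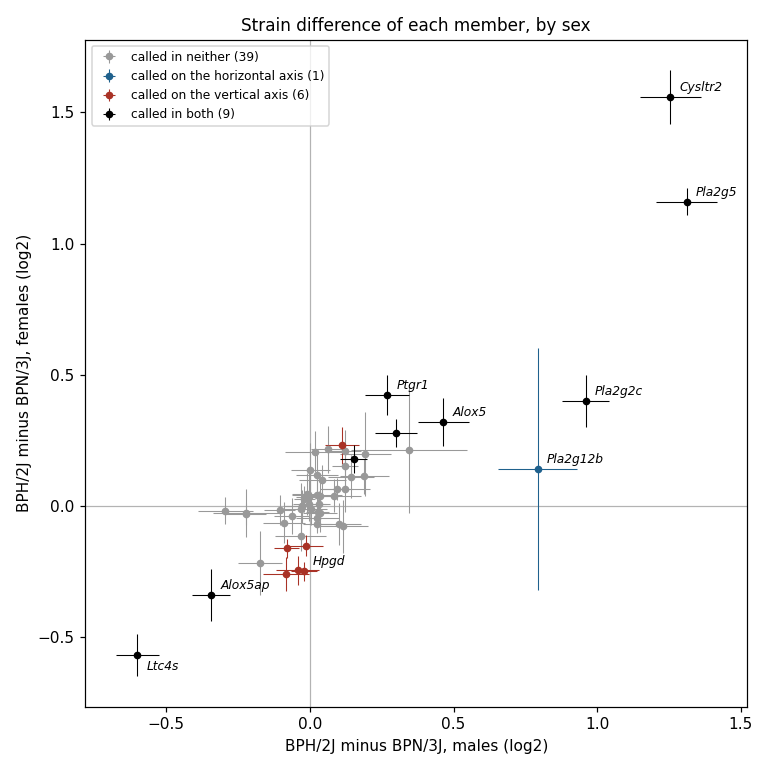
Log2 difference of BPH/2J minus BPN/3J for each of the 55 members, in males (horizontal) and in females (vertical), with bars of 1 SE. Black points (9) were called in both sexes, blue (1) in males, red (6) in females and grey (39) in neither. *Cysltr2* and *Pla2g5* lie far up on both axes and *Ltc4s* far down.

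On the prostaglandin side, *Ptgis*, the prostacyclin synthase of vessel walls, measured 7.15 to 7.60 (median 7.32) in BPN/3J males, 7.55 to 7.85 (median 7.61) in BPH/2J males, 7.41 to 7.75 (median 7.52) in BPN/3J females and 7.78 to 7.86 (median 7.80) in BPH/2J females. Females of the strains were apart and males overlapped. It was higher in BPH/2J by 0.30 in males (SE 0.073, 1.23-fold, adjusted p = 0.0126) and by 0.28 in females (SE 0.0531, 1.21-fold, adjusted p = 0.00297). *Ptgfrn*, which encodes a membrane protein that associates with the prostaglandin F receptor, measured 7.45 to 7.66 (median 7.54), 7.65 to 7.79 (median 7.69), 7.53 to 7.83 (median 7.72) and 7.81 to 7.94 (median 7.86) in the same group order. Its differences of 0.15 in males (SE 0.0462, adjusted p = 0.0415) and 0.18 in females (SE 0.0528, adjusted p = 0.0388) lay near the threshold, and the calls were lost under 19 of 25 and 17 of 26 alternative settings. The mean of 9 smooth muscle genes was 8.97 to 9.17 in BPN/3J and 9.29 to 9.39 in BPH/2J males, and 9.23 to 9.49 and 9.54 to 9.67 in the females, apart in each sex, and its part in these results was not tested.

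*Ptgr1*, a reductase that inactivates prostaglandins and leukotriene B4, measured 7.34 to 7.68 (median 7.50) in BPN/3J males, 7.62 to 7.94 (median 7.77) in BPH/2J males, 6.64 to 7.08 (median 6.94) in BPN/3J females and 7.21 to 7.43 (median 7.33) in BPH/2J females. It was higher in BPH/2J by 0.27 in males, whose arrays overlapped (SE 0.0766, adjusted p = 0.0294), and by 0.42 in females, whose arrays did not (SE 0.0766, 1.34-fold, adjusted p = 0.00194). The call in males was lost under 11 of 25 alternative settings. *Tbxas1*, the thromboxane synthase, was lower in BPH/2J females (−0.25, adjusted p = 0.008), and *Ephx1*, the microsomal epoxide hydrolase, was higher in them (0.23, SE 0.0709, adjusted p = 0.0464), a call lost under 15 of 26 alternative settings. *Ptgs2*, the inducible cyclooxygenase, had differences of 0.19 in males and 0.20 in females and was not called, and the 6 prostanoid receptors other than *Tbxa2r* in the list differed by −0.12 to 0.14 and were not called. *Tbxa2r*, the thromboxane receptor, had −0.29 in males (adjusted p = 0.0524).

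The mean of 10 adipocyte genes did not overlap between the female strains (7.83 to 8.63 in BPN/3J and 8.67 to 9.54 in BPH/2J), while in males it ran from 7.63 to 8.85 and from 8.44 to 8.96. With this mean in the model, 4 members were called in females in place of 15, and the standard errors were larger. The differences in females were then −0.43 for *Ltc4s* (SE 0.14, adjusted p = 0.0969), 0.20 for *Ptgis* (SE 0.0916, adjusted p = 0.252) and 0.33 for *Ptgr1* (SE 0.135, adjusted p = 0.185). Those of *Tbxas1* (−0.07, adjusted p = 0.685), *Lta4h* (−0.07, adjusted p = 0.621) and *Ephx1* (0.05, adjusted p = 0.866) were smaller than without it. *Cysltr2*, *Pla2g5* and *Hpgd* were still called, and *Ptgds* was called in addition (0.46, adjusted p = 0.0244). In males 10 members were called with it.

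The sex comparisons called more members than the strain comparisons. In BPN/3J, 20 members differed between females and males, 14 higher and 6 lower in females, and in BPH/2J 22 differed, 14 higher and 8 lower. Of all probe sets, 14.4% were higher and 14.8% lower in BPN/3J females, and 15.6% were higher and 13.4% lower in BPH/2J females, beside 25.5% and 10.9% of members in BPN/3J and 25.5% and 14.5% in BPH/2J. The medians were 0.06 and 0.02 for the members, and −0.02 and −0.003 over all probe sets. The comparisons in the strains share no array with each other, though each shares its arrays with the strain comparisons. They had 16 members in common, 80% of the BPN/3J and 72.7% of the BPH/2J calls, with 11 higher and 5 lower in females and none in opposite directions, where 10.2% and 9.47% of all probe sets were higher and lower in females of both strains.

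Marker means moved with sex as well. The mean of the smooth muscle genes was apart between the sexes in both strains, at 8.97 to 9.17 in males and 9.23 to 9.49 in females of BPN/3J and at 9.29 to 9.39 and 9.54 to 9.67 in BPH/2J, and the tubule and glomerulus mean was apart too. The adrenal cortex mean had medians of 6.50 and 6.72 in BPN/3J and BPH/2J males and of 9.11 and 9.58 in the females, with overlapping arrays. Their part in the sex differences below was not tested, other than for the hepatocyte and adrenal cortex means as covariates, with which 20 members were called in BPN/3J and 19 in BPH/2J. With the adipocyte mean in the model, 20 members were called in BPN/3J and 17 in BPH/2J, beside 20 and 22 without it.

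**Figure D4:**
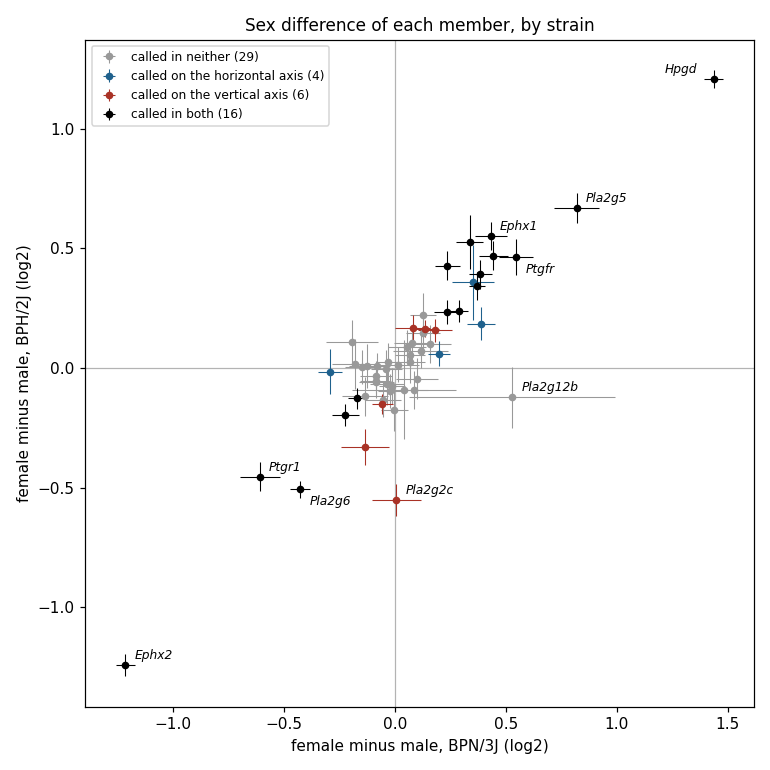
Log2 difference of females minus males for each of the 55 members, in BPN/3J (horizontal) and in BPH/2J (vertical), with bars of 1 SE. Black points (16) were called in both strains, blue (4) in BPN/3J, red (6) in BPH/2J and grey (29) in neither. *Hpgd* lies at the upper right and *Ephx2* at the lower left, and *Pla2g2c* lies at 0.01 in BPN/3J and −0.55 in BPH/2J.

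*Hpgd* (probe set 10571840), the dehydrogenase that begins the breakdown of prostaglandins, measured 9.66 to 9.85 (median 9.71) in BPN/3J males and 11.07 to 11.23 (median 11.16) in BPN/3J females. In BPH/2J it measured 9.64 to 9.82 (median 9.69) in males and 10.87 to 10.94 (median 10.93) in females. The sexes were widely apart in both strains, and the females of the strains were apart from each other while the males overlapped. It was higher in females by 1.44 in BPN/3J (SE 0.0424, 2.71-fold, adjusted p = 6.24e-11) and by 1.21 in BPH/2J (SE 0.0372, 2.31-fold, adjusted p = 8.64e-11). The strain difference was −0.25 in females (SE 0.0353, adjusted p = 0.00027) and −0.02 in males (95% interval −0.12 to 0.07). The interaction of −0.23 (SE 0.0527, adjusted p = 0.02) was not called without arrays 2 and 5 of the BPN/3J females (−0.20, adjusted p = 0.0839).

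The soluble epoxide hydrolase *Ephx2*, which opens the epoxides of arachidonic acid to diols, was the member with the largest sex difference in the other direction. It measured 11.69 to 11.86 (median 11.76) in BPN/3J males, 11.73 to 11.84 (median 11.79) in BPH/2J males, 10.46 to 10.64 (median 10.54) in BPN/3J females and 10.38 to 10.65 (median 10.57) in BPH/2J females. Males read above females on every array. The difference was −1.22 in BPN/3J (SE 0.0425, 2.32-fold lower in females, adjusted p = 3.01e-10) and −1.24 in BPH/2J (SE 0.047, 2.36-fold lower, adjusted p = 5.84e-10), and the strains differed by 0.03 in males (95% interval −0.05 to 0.12) and 0.01 in females (−0.10 to 0.12). *Ephx1* was higher in females: it measured 9.52 to 9.79 (median 9.66) in BPN/3J males, 9.90 to 10.31 (median 10.07) in BPN/3J females, 9.70 to 9.95 (median 9.74) in BPH/2J males and 10.18 to 10.48 (median 10.31) in BPH/2J females. Its sex differences were 0.43 (SE 0.0716, 1.35-fold, adjusted p = 0.000483) and 0.55 (SE 0.0585, 1.46-fold, adjusted p = 1.13e-05), without overlap. *Ephx3* was lower in BPH/2J females than males (−0.33, adjusted p = 0.00483), and *Ephx4* was not called. With the mean of the adipocyte genes in the model *Ephx3* was no longer called (−0.37, adjusted p = 0.0519).

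**Figure D5:**
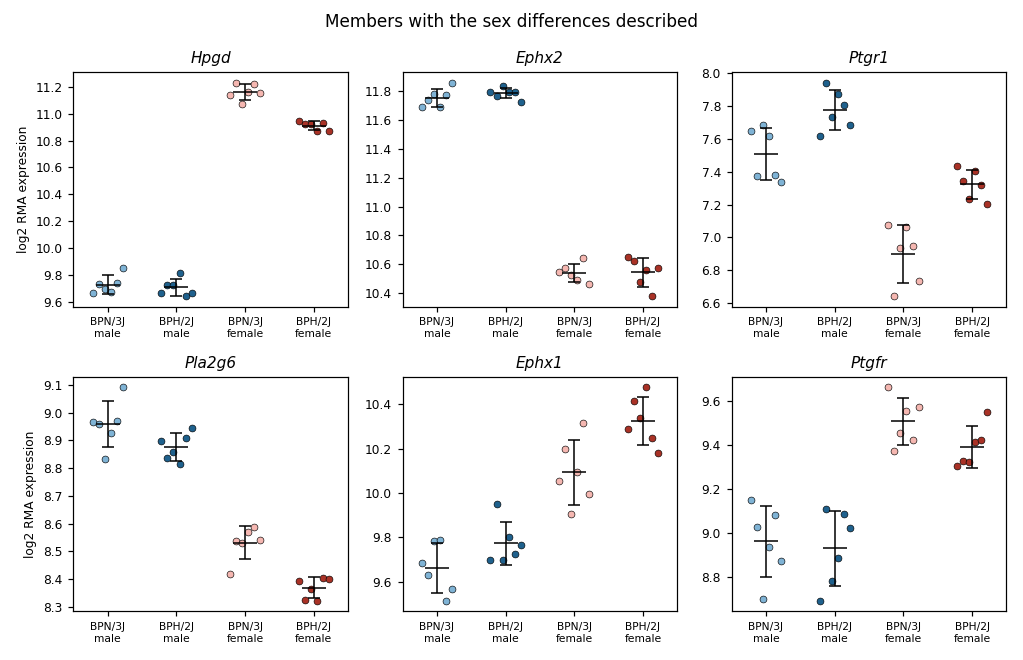
Log2 RMA expression of 6 members with sex differences, by strain and sex. Each point is 1 array (1 mouse), and the bars are the group mean and its SD (n = 6). *Hpgd*, *Ephx1* and *Ptgfr* are higher and *Ephx2*, *Ptgr1* and *Pla2g6* lower in females of both strains.

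Among the phospholipases, *Pla2g5* was higher in females by 0.82 in BPN/3J (SE 0.0998, 1.76-fold, adjusted p = 3.86e-05) and by 0.67 in BPH/2J (SE 0.064, 1.59-fold, adjusted p = 4.55e-06). *Pla2g2c* was lower in BPH/2J females than in BPH/2J males by 0.55 (log2 difference −0.55, SE 0.0673, adjusted p = 3.76e-05) and differed by 0.01 in BPN/3J (95% interval −0.23 to 0.25). *Pla2g6*, a calcium-independent phospholipase inside the cell, measured 8.83 to 9.09 (median 8.96) in BPN/3J males, 8.42 to 8.59 (median 8.54) in BPN/3J females, 8.81 to 8.94 (median 8.88) in BPH/2J males and 8.32 to 8.40 (median 8.38) in BPH/2J females. Males lay above females in both strains, with differences of −0.43 (SE 0.0457, adjusted p = 1.27e-05) and −0.51 (SE 0.0349, 1.42-fold lower, adjusted p = 2.15e-07). Females of BPH/2J were also below those of BPN/3J (−0.16, SE 0.0363, adjusted p = 0.00837). Without arrays 2 and 5 of the BPN/3J females this difference was −0.15 (adjusted p = 0.0502).

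*Pla2g4a*, the cytosolic phospholipase that supplies arachidonic acid to the cyclooxygenases, was higher in females by 0.44 in BPN/3J and 0.47 in BPH/2J. *Pla2g7*, which inactivates platelet-activating factor, was higher by 0.38 and 0.39, and *Pla2g15*, a lysosomal enzyme, by 0.29 and 0.24. For all 3 genes the arrays of the sexes did not overlap in either strain, and how often that held over all probe sets was not computed. *Pla2g4c*, *Pla2g4d*, *Pla2g4e* and *Pla2g4f* were called in no comparison.

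Of 8 synthases, 4 were higher and 1 lower in BPN/3J females, and 3 were higher and 2 lower in BPH/2J females; of 8 receptors and partners, 3 were higher and 1 lower in BPN/3J and 4 were higher in BPH/2J. Over all probe sets the shares were 14.4% higher and 14.8% lower in BPN/3J and 15.6% and 13.4% in BPH/2J. *Ptgds*, the lipocalin-type synthase of prostaglandin D2, measured 7.74 to 8.04 (median 7.96) in BPN/3J males, 8.12 to 8.41 (median 8.27) in BPN/3J females, 7.68 to 8.32 (median 7.91) in BPH/2J males and 8.26 to 8.72 (median 8.41) in BPH/2J females. The sexes were apart in BPN/3J (0.34, SE 0.0616, adjusted p = 0.00103) and overlapped in BPH/2J (0.53, SE 0.114, adjusted p = 0.00335). *Ptges*, the inducible synthase of prostaglandin E2, was higher in females by 0.24 and 0.43, while *Ptges2* was lower by small amounts (−0.17 and −0.13). The call of *Ptges2* in BPH/2J was lost under 17 of 26 alternative settings. *Ptgs2* was called in BPN/3J (0.35, adjusted p = 0.0126) and had nearly the same difference in BPH/2J without a call (0.36, adjusted p = 0.112).

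*Ptgfr*, the prostaglandin F receptor, measured 8.70 to 9.15 (median 8.98) in BPN/3J males, 9.37 to 9.66 (median 9.51) in BPN/3J females, 8.69 to 9.11 (median 8.95) in BPH/2J males and 9.31 to 9.55 (median 9.37) in BPH/2J females. Females lay above males in both strains, by 0.55 (SE 0.0757, 1.46-fold, adjusted p = 0.000116) and 0.46 (SE 0.0752, 1.38-fold, adjusted p = 0.000416). The prostaglandin E receptors *Ptger3* and *Ptger4* were higher in females by 0.24 in both strains and by 0.37 and 0.34, again without overlap. *Tbxa2r* was lower in BPN/3J females (−0.29, adjusted p = 0.00122) and differed by −0.02 in BPH/2J, and its interaction was not called. *Ptger2*, *Ptgdr* and *Ptgir* were called in no comparison.

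Breakdown genes did not share a direction. Beside *Hpgd*, higher in females, *Ptgr1* was lower in females by 0.61 in BPN/3J (log2 difference −0.61, SE 0.0899, adjusted p = 0.000197) and by 0.45 in BPH/2J (−0.45, SE 0.0607, adjusted p = 8.17e-05), and *Ptgr2* was lower by a smaller amount (−0.22 and −0.20). Of the 8 lipoxygenase genes, *Alox5ap* included, none was called by sex in BPN/3J. *Alox12* was the 1 called in BPH/2J (0.17, adjusted p = 0.0361, lost under 16 of 26 alternative settings). *Lta4h* (0.20, adjusted p = 0.00887) was the 1 leukotriene gene called, in BPN/3J. Over all probe sets 14.4% were higher and 14.8% lower in BPN/3J females, and 15.6% and 13.4% in BPH/2J females. The means of *Alox12b*, *Alox12e*, *Alox15*, *Aloxe3* and *Ltb4r1* lay under the 40th percentile of all probe sets. *Cysltr2* and *Ltc4s*, with strain differences in both sexes, were called by sex in neither strain.

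At the Bonferroni threshold 4 members differed by sex in BPN/3J (*Hpgd*, *Ephx2*, *Pla2g6* and *Ptger4*) and 5 in BPH/2J (*Hpgd*, *Ephx2*, *Pla2g6*, *Pla2g5* and *Ephx1*), where 4.74% and 4.72% of all probe sets passed. The strain-by-sex interaction was called for *Pla2g2c* and *Hpgd* alone among the members, and was negative for both. The strain difference of *Pla2g2c* was larger in males, and that of *Hpgd*, lower in BPH/2J, was larger in females. Of all probe sets 0.918% had a positive and 0.842% a negative interaction.

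By sex, 26 members were called in at least 1 strain, and by strain 16 in at least 1 sex. No call was made in any comparison for 23 members, of which 18 were among the 21 members with a mean under the 40th percentile of all probe sets. The others, at or above it, were *Pla2g1b*, *Pla2g2d*, *Pla2g12a*, *Ptgir* and *Cysltr1*. Matching shares of all probe sets were not computed for the counts of 26, 16 and 23, which describe the members alone. *Cysltr2* and *Pla2g2c* were themselves under that percentile, and no detection call was used here to say which arrays were above background. The further probe sets of *Ptges3* gave −0.15 and 0.01 in the sex comparison of BPH/2J, beside the −0.15 of the one used.

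A list of 46 other pathway genes was chosen with earlier results of these data known, so its shares describe the list alone. The 41 of them that were measured held transporters, cytochromes P450, reductases and regulators around the members. In BPH/2J males 13 were higher and 5 lower, and in BPH/2J females 8 were higher and 8 lower, which is 31.7% and 12.2% of the list in males and 19.5% and 19.5% in females, beside 7.48% and 7.7%, and 8.01% and 6.48%, over the whole array. By sex, 14 were higher and 7 lower in BPN/3J females, and 15 higher and 13 lower in BPH/2J females (34.1% and 17.1%, and 36.6% and 31.7%, beside 14.4% and 14.8%, and 15.6% and 13.4%, of all probe sets). The largest called differences of the list by strain were those of *Cbr2* (3.26 in males and 2.28 in females) and *Akr1c18* (−2.46 and −1.02). By sex they were those of *Cyp4a14* (5.74 in BPN/3J and 4.36 in BPH/2J), *Cyp4a12a* (−3.23 and −4.02) and *Cbr1* (2.67 and 2.41). The genes that follow are examples and were not chosen by size. *Slco2a1*, the transporter that takes prostaglandins up before *Hpgd* acts on them, was higher in females by 0.74 (SE 0.058) and 0.60 (SE 0.0531). *Abcc4*, an exporter of prostaglandins, was higher in females by 0.96 (SE 0.0621) and 0.83 (SE 0.103). *Anxa1*, a protein known to restrain phospholipase A2, was higher in BPH/2J by 0.56 (SE 0.0769) in males and 0.58 (SE 0.0572) in females, and *Pla2r1*, a receptor for secreted phospholipases A2, by 0.22 (SE 0.0683) and 0.31 (SE 0.0524). *Faah*, a hydrolase of fatty acid amides, was lower in BPH/2J by 0.41 (log2 difference −0.41, SE 0.0466) and by 0.33 (−0.33, SE 0.0409).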

How the data were processed

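Per the labels, each array held the kidney RNA of 1 mouse. The authors used RMA to normalize the Mouse Gene 1.0 ST arrays and deposited 1 log2 value per probe set, which entered the tests without further scaling, filter or offset. No source used here gives the RMA version. Strain, sex and replicate number came from the labels (n = 6 per group), and this number of mice sets the precision. Symbols came from the platform's annotation, and all 55 symbols matched RefSeq by gene ID. Strains were compared within each sex and sexes within each strain (12 arrays each), and the interaction on 24 arrays, with limma 3.58.1 in R 4.3.3 (moderated, two-sided). A call was an adjusted p under 0.05 by the Benjamini-Hochberg procedure, taken over every probe set of the array. Alternatives were the Bonferroni adjustment and two-sided test that the study's methods name, the latter run here with unequal variances, on which the methods are silent.

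Group values are printed for members called in both sexes by strain, called by strain with a log2 difference over 0.5 in either sex, called in the interaction, or called by sex with one over 0.5 in either strain (16 members). The members, lists and alternatives were chosen with earlier results of these data known. The remaining alternatives were a 1.5-fold minimum, a filter at the 40th percentile of mean expression, median or quantile scaling, a single model of the 24 arrays, a trended robust prior, the mean of a gene's probe sets, blocks for replicate number or, within BPH/2J, animal number series, list means of hepatocyte with adrenal cortex genes or of adipocyte genes as covariates, and arrays left out. No animal number series held mice of both strains, so series and strain cannot be told apart. The fits were tested on simulated data. Replicate numbers were not taken as pairs of mice. Plots were made in matplotlib 3.10.9 under Python 3.11.15.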

Additional observations from a re-analysis of the deposited data

Results flagged for a closer look

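In 5 of the 64 groups tested among the named members the highest or lowest array stood apart from the other 5 by a gap above Dixon's 95% critical value for 6 samples; chance gives about 1 in 20 groups. *Pla2g2c* read 5.434 on array 6 of the BPN/3J males (next array 5.693, highest 5.844) and 5.974 on array 3 of the BPH/2J females (next 6.151, highest 6.208). *Pla2g12b* read 6.856 on array 3 of the BPH/2J females (next 6.532, lowest 6.398). *Pla2g6* read 8.419 on array 1 of the BPN/3J females (next 8.53, highest 8.587). *Ptgis* read 7.857 on array 2 of the BPH/2J females (next 7.807, lowest 7.784).

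The strain difference differed between the sexes for *Pla2g2c*, with an interaction of −0.5595 in limma (adjusted p = 0.0269), and for *Hpgd*, with −0.23 (adjusted p = 0.02).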

How the results depend on the processing

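Of 69 calls of members over the comparisons, none changed direction. Apart from the Bonferroni and 1.5-fold settings, 43 held under every alternative in which their probe set was tested. The filter on dim probe sets removed *Pla2g2c*, *Cysltr2* and *Alox8*, so their calls were not tested under it. The 43 include calls of *Pla2g2c* and *Cysltr2*. The counts below are given in the order males and females by strain, BPN/3J and BPH/2J by sex, interaction, and strain in both sexes, against 10, 15, 20, 22, 2 and 9. They were 3, 2, 4, 5, 0 and 2 with Bonferroni, and 5, 2, 4, 3, 0 and 2 with a 1.5-fold change in addition. The methods' two-sided test, run here with unequal variances, gave with Bonferroni 2, 2, 3, 3 and 1, without the interaction, and with Benjamini-Hochberg it left 4 calls in both sexes. With the adipocyte mean as a covariate 4 members were called by strain in females, 17 by sex in BPH/2J, 1 in the interaction and 2 by strain in both sexes. The interaction was called for *Hpgd* as the 1 member without dim probe sets, with the replicate block and with the adipocyte mean, and for *Pla2g2c* as the 1 member without arrays 2 and 5 of the BPN/3J females. Leaving out single arrays gave 8 to 11, 10 to 14, 20 to 21, 19 to 22, 1 to 2 and 6 to 9; the interaction of *Pla2g2c* was lost without replicate 2 or 5 of the BPH/2J males or replicate 1 of the BPN/3J females, and *Tbxa2r* was called in the interaction without that replicate 2. The replicate block gave 8, 13, 20 and 20 calls in the strain and sex comparisons, and the animal number series as a block 20 in BPH/2J; same-numbered arrays deviated together at r = −0.567 to 0.444, so the numbers were not taken as pairs. *Pla2g12b* in females was 0.93 without arrays 2 and 5, 0.68 with the hepatocyte and adrenal covariates (adjusted p = 0.0286), and −0.53 with the adipocyte covariate (adjusted p = 0.787), and ran from −0.085 to 0.53 when single arrays were left out. Apart from what leaving arrays or a covariate out shows, the cause of these changes was not tested. Quantile or median scaling moved the median difference of all probe sets by at most 0.0415. With 6 arrays a group, small differences near the threshold, such as those of *Ptgfrn*, are the least settled.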
